A study of Homo sapiens with 12 samples.

Results

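The AKR1 family of aldo-keto reductases was represented by 9 genes, AKR1A1, AKR1B1, AKR1B10, AKR1B15, AKR1C1, AKR1C2, AKR1C3, AKR1C4 and AKR1D1, taken by gene name from the 57736 genes of the count tables, of which 27326 had a count in any library. The family was chosen by a readout, since AKR1C2 had stood among the largest increases of Ls174 cells with the seaweed extract HME. The values of HME against control in Ls174 cells are therefore given as a description with no p value. The number of members past the threshold there is printed without reading anything from it. The HepG2 comparison and the comparisons between the lines were tested. Those between the lines use the same Ls174 libraries as the selecting contrast, so their p values are not free of the selection. HepG2 (a line from a human liver cancer) and Ls174 (a line from a human colon cancer), both wild type per the labels, were cultured for 24 h with an extract of the red seaweed Hypnea musciformis at 0.7 mg/ml, which the labels call its IC50 concentration, or with no treatment. RNA from 3 replicates of each of these 4 groups was sequenced as 3′ mRNA libraries, in which reads start from the end of the polyadenylated transcript, so that counts do not grow with transcript length. Each line stands for 1 tumour.

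Aldo-keto reductases are NADPH-dependent enzymes that reduce aldehydes and ketones to alcohols. AKR1A1 and AKR1B1 are the broadly expressed aldehyde and aldose reductases, and AKR1B10 reduces retinal and reactive lipid aldehydes and is known for its rise in liver tumours. AKR1C1, AKR1C2, AKR1C3 and AKR1C4 are hydroxysteroid dehydrogenases that also reduce carbonyls of lipids and drugs, with AKR1C4 typical of normal liver, and AKR1D1 is the steroid 5β-reductase of bile acid synthesis. Several members, AKR1B10 and the AKR1C genes among them, are known targets of NRF2, the transcription factor of the antioxidant response.

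The AKR1C genes lie in 1 cluster on chromosome 10 and are close copies of each other, which bears on how 3′ reads can be assigned. To show this, the last 90 coding bases before the stop codon are printed here from the GRCh37 genome, with capitals where a base differs from AKR1C1. The last coding exon holds 40 of these bases, at chr10:5019892-5019931 (plus strand) in AKR1C1, chr10:5032191-5032230 (minus strand) in AKR1C2, chr10:5149653-5149692 (plus strand) in AKR1C3 and chr10:5260681-5260720 (plus strand) in AKR1C4.
AKR1C1: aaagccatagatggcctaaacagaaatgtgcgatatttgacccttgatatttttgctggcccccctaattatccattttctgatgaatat
AKR1C2: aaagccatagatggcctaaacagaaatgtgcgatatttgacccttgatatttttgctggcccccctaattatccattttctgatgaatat
AKR1C3: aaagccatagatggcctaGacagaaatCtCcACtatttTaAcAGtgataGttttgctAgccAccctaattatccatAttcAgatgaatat
AKR1C4: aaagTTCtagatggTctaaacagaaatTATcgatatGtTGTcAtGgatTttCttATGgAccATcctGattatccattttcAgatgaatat
AKR1C2 had 0 differences from AKR1C1 in this stretch, AKR1C3 had 14 and AKR1C4 had 23. Over the whole coding sequence, AKR1C1 was 98.0% identical to AKR1C2, 91.4% to AKR1C3 and 88.5% to AKR1C4, and AKR1B10 was 85.9% identical to AKR1B15.

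A main counted region, the one with most of a gene's counts, began 1 base after the stop codon in 7 members and shortly before it in AKR1B1 and AKR1D1, and, except in AKR1D1, ended between 193 and 203 bases past the annotated transcript end. The main region was chr10:5019935-5025672 for AKR1C1, chr10:5029770-5032187 for AKR1C2, chr10:5149696-5150075 for AKR1C3 and chr7:134225842-134226357 for AKR1B10 (hg19), and the main region of each member held between 97.2% and 100% of its counts. The regions of AKR1C1 and AKR1C2 were 96.5% identical over 2427 aligned columns, with a longest exact run of 437 bases, and 47.1% of all 50-base windows of the AKR1C2 region occurred in the AKR1C1 region. The division of reads between AKR1C1 and AKR1C2 is therefore uncertain, and their sum is given beside each. AKR1C3 shared no 30-base window with AKR1C1 or AKR1C2, with a longest exact run of 14 bases, and AKR1B10 shared no 50-base window with AKR1B15. No pair of members had identical counts, and no region of another gene overlapped a member's region.

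The upstream sequences of AKR1C1 and AKR1C2 were as alike as their ends, and are shown because the pair moved together. Both are RefSeq windows of GRCh38.p14 from 250 bases before to 50 bases after the transcript start, chr10:4963165-4963464 (plus strand) for AKR1C1 and chr10:5003808-5004107 (minus strand) for AKR1C2, and capitals mark where AKR1C2 differs from AKR1C1.
AKR1C1 promoter: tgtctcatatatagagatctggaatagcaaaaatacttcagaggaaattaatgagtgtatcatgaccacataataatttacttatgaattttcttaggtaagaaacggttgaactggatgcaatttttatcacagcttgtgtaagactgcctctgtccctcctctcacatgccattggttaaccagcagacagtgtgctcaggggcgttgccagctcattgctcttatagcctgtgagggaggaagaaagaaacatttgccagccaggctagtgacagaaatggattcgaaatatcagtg
AKR1C2 promoter: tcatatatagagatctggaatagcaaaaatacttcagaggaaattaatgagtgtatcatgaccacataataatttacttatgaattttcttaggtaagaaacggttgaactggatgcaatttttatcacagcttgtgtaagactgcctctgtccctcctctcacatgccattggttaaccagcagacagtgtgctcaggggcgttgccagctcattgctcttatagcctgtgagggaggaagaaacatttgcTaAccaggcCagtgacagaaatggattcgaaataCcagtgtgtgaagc
The windows were 97.3% identical over 296 aligned columns, with 4 substitutions and 4 gap columns, which have no letter to mark. Bases at the window ends outside these columns were not compared and are printed in lower case. AKR1C3, for which the table lists 2 starts, was 75.7% and 75.3% identical to AKR1C1, and AKR1C4 was 63.1% identical. The table held windows for 7 of the 9 members, not for AKR1B10 and AKR1B15. Neither the antioxidant response element letters TGACNNNGC nor the AP-1 letters TGANTCA occurred on either strand of the members' 9 windows, against 13.3% and 7.71% of all 35116 windows of this length, which says only that these letters are not in these 300 bases.

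Library totals lay between 1790841 and 3656662 counts. The chi-square per degree of freedom between replicates of a group lay between 4.44 and 54.1, where sampling noise alone gives about 1, so none was a repeat of another, and HepG2 control 2 and Ls174 control 1 stood apart from the other controls of their line. Hepatocyte markers (8 genes such as ALB) summed to between 18200 and 21447 CPM (counts per 1000000 of the TMM-scaled library total) in HepG2 controls and between 12873 and 14057 CPM with HME, so these groups did not overlap. In Ls174 libraries they summed to 0, 0.31 and 127 CPM in controls 1, 2 and 3 and 57.9, 0 and 9.53 CPM with HME. All 8 colon and goblet cell markers had counts in Ls174 cells, with CDX2 between 32.0 and 98.3 CPM, while the mucin gene MUC2 did not exceed 2.17 CPM and was at 0 in HepG2 cells. The summed colon markers lay between 207 and 378 CPM in Ls174 and between 69.8 and 209 CPM in HepG2 libraries. Blood markers summed to between 202 and 723 CPM in HepG2 libraries, where LYZ, CD74 and the globin gene HBA1 each exceeded 3 counts in a library and PTPRC, CD3E and HBB were at 0. They summed to at most 5.89 CPM in Ls174 libraries, and endothelial markers to at most 4.36 CPM in any library. HepG2 HME 2 alone carried fibroblast markers, summed to 961 CPM, with COL1A1 at 551 and COL1A2 at 408 CPM but DCN at 0, against at most 12.01 CPM in each of the other 11 libraries. The part of these markers in the AKR1 levels was not tested. Without HepG2 HME 2 the log2 fold changes with HME in HepG2 cells were 3.03 for AKR1B10, 1.18 for AKR1C1, 1.64 for AKR1C2, 1.43 for AKR1C3, -2.45 for AKR1D1, -0.37 for AKR1A1 and 0.51 for AKR1B1. Without Ls174 HME 1 those in Ls174 cells were 2.70 for AKR1B10, 2.38 for AKR1C1, 3.19 for AKR1C2 and 2.33 for AKR1C3, and without Ls174 control 3 they were 2.84, 2.98, 3.78 and 2.57.

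AKR1B10, the retinal and lipid aldehyde reductase, showed the largest rise with HME in HepG2 cells among the members. Its level was 55.1, 16.2 and 55.0 CPM in HepG2 controls 1, 2 and 3 and 314, 305 and 353 CPM with HME, so that the lowest treated library stood far above the highest control. The increase was 7.81-fold (log2 2.96, SE 0.45, 95% interval 1.96 to 3.97, adjusted p = 0.0083). In these bulk libraries more RNA per cell and more cells that carry it cannot be told apart. The rise was called in each fit that left out 1 library, with log2 fold changes between 2.62 without control 2, the library with the lowest level, and 3.19, and it was 3.03 (adjusted p = 0.027) without HME 2. In these edgeR fits the adjusted p reached 0.049 at most, without HME 3, just under the threshold.

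In Ls174 cells AKR1B10 stood at 7.38, 3.10 and 7.68 CPM in controls, from 10 to 30 counts, and at 30.6, 34.1 and 44.4 CPM with HME. Again no treated library overlapped a control, and the log2 fold change was 2.58 (SE 0.38, 95% interval 1.72 to 3.44). The treated Ls174 level lay within the range of untreated HepG2 cells only through HepG2 control 2 (16.2 CPM), and below HepG2 controls 1 and 3 (55.1 and 55.0 CPM). Between the lines, AKR1B10 was lower in Ls174 than in HepG2 cells without HME (log2 fold change -2.82, SE 0.58) and with HME (-3.17, SE 0.21, adjusted p = 5.7e-07). Without HME it passed the filter on low counts only through the HepG2 controls, as Ls174 control 2, with 10 counts, was under the limit. No p value is therefore given for the untreated difference.

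**Figure D1:**
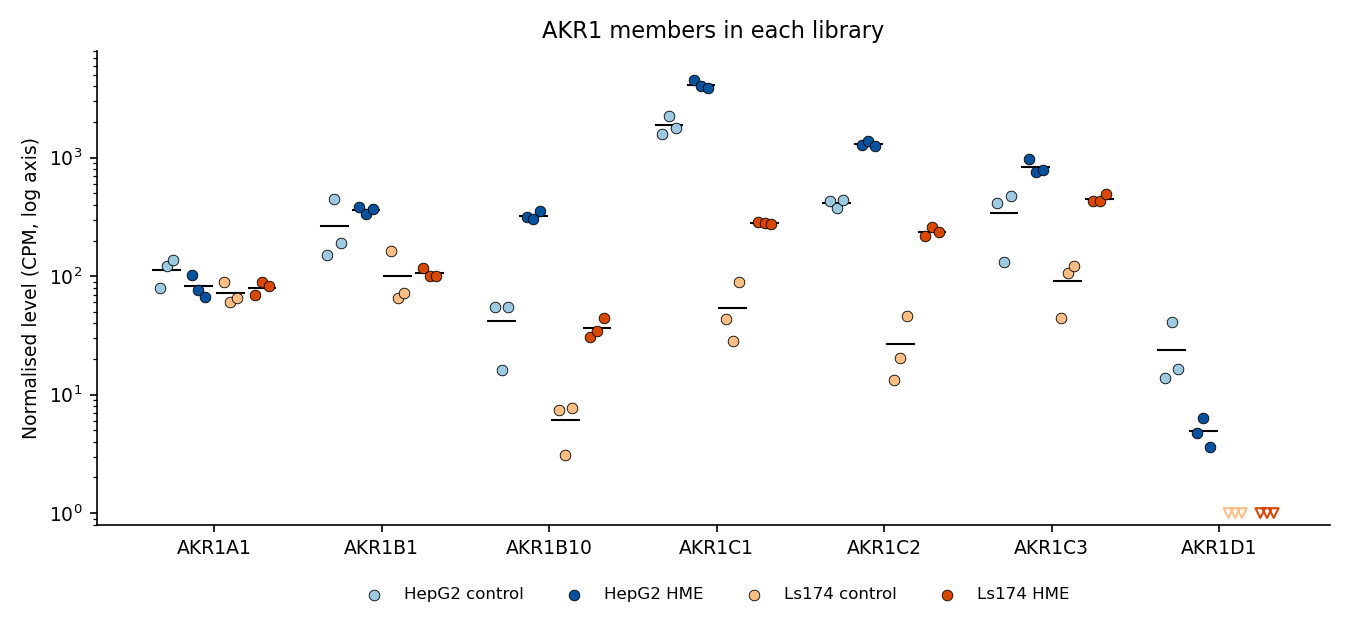
Normalised level of the 7 members with more than a few counts in each of the 12 libraries (points, CPM on a log axis) with the mean of each group (black line, n = 3); open triangles at the foot mark a level of 0. AKR1B10, AKR1C1, AKR1C2 and AKR1C3 lie higher with HME than without it in both lines with no overlap, AKR1D1 lies lower with HME in HepG2 cells and is at 0 in Ls174 cells, and AKR1A1 and AKR1B1 overlap between treated and control libraries.

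AKR1C1, a 20α-hydroxysteroid dehydrogenase that inactivates progesterone, was the most abundant member in HepG2 cells. HepG2 controls held 1595, 2233 and 1795 CPM and treated cells 4507, 4045 and 3860 CPM. Its mean count ranked 69 among all genes without HME and 23 with HME. The treated libraries all lay above the controls, at 2.21-fold (log2 1.14, SE 0.33, 95% interval 0.40 to 1.88), but the adjusted p of 0.091 did not pass.

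Ls174 controls held 43.3, 28.6 and 89.4 CPM of AKR1C1 and treated Ls174 cells 289, 283 and 278 CPM. The treated libraries lay within a narrow band above all controls (log2 fold change 2.39, SE 0.38, 95% interval 1.51 to 3.26). Control 3, the highest, was also the control with 127 CPM of hepatocyte markers, and without it the log2 fold change was 2.98. AKR1C1 was lower in Ls174 than in HepG2 cells, with a log2 fold change of -5.16 without HME (SE 0.56, adjusted p = 0.00025) and -3.89 with HME (SE 0.23, adjusted p = 3.2e-07). Without Ls174 control 3 the untreated difference was -5.76.

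AKR1C2, which reduces the androgen dihydrotestosterone at its 3-keto group, was the other member that rose in HepG2 cells by the adjusted test. It stood at 434, 379 and 439 CPM in controls, the tightest control values of the AKR1C genes, and at 1275, 1373 and 1264 CPM with HME. The rise was 3.15-fold (log2 1.66, SE 0.29, 95% interval 1.00 to 2.32, adjusted p = 0.017). Leaving out any 1 library kept the log2 fold change between 1.64 and 1.70, but the adjusted p then exceeded 0.05 except without control 2, and reached 0.086 at most (0.081 without HME 2).

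In Ls174 cells AKR1C2 rose from 13.3, 20.5 and 46.1 CPM to 218, 259 and 234 CPM, the difference for which the family was selected. The log2 fold change was 3.12 (SE 0.41, 95% interval 2.19 to 4.06), and 3.78 without control 3. Compared between lines, AKR1C2 was lower in Ls174 cells by a log2 fold change of -3.99 without HME (SE 0.51, adjusted p = 0.0006) and -2.48 with HME (SE 0.20, adjusted p = 2.2e-06). The untreated difference was -4.66 without Ls174 control 3.

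Because reads of AKR1C1 and AKR1C2 can be exchanged, their counts were also summed into 1 feature, a setting chosen after the data were seen. The sum was 2291 ± 296 CPM in HepG2 controls and 5441 ± 330 CPM with HME (SD, n = 3), and in Ls174 cells 80.3 ± 47.9 CPM and 520 ± 19.2 CPM. In HepG2 cells the sum had a log2 fold change of 1.25 with an adjusted p of 0.070, so the AKR1C2 call did not hold for the pair. In Ls174 cells it was 2.68, and between the lines it was -4.87 without HME (adjusted p = 0.00029) and -3.41 with HME (adjusted p = 7.2e-07).

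AKR1C3, the enzyme that makes testosterone and prostaglandin F2α, has a 3′ end of its own and is the member of the cluster least open to misassigned reads. HepG2 controls held 415, 131 and 471 CPM, with control 2 far below the others, and treated cells held 977, 751 and 790 CPM. All treated libraries lay above all controls, at a log2 fold change of 1.34 (SE 0.44, 95% interval 0.35 to 2.33, adjusted p = 0.12). Without control 2 the estimate was 0.99 and its adjusted p was 0.039, and with any other library left out the adjusted p lay between 0.13 and 0.29.

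Ls174 controls held 44.8, 106 and 122 CPM of AKR1C3 and treated cells 435, 428 and 490 CPM, again without overlap (log2 fold change 2.30, SE 0.34, 95% interval 1.52 to 3.08). Control 1, the library apart from the other Ls174 controls, had the lowest level, and without it the log2 fold change was 1.99. AKR1C3 was lower in Ls174 than in HepG2 cells both with HME (log2 fold change -0.92, SE 0.20, adjusted p = 0.0024) and without it (-1.92, SE 0.55, adjusted p = 0.033). The call without HME was lost when HepG2 control 1 (adjusted p = 0.089), HepG2 control 3 (0.11), Ls174 control 1 (0.069) or Ls174 control 2 (0.073) was left out, and with scaling by library size alone (0.065). The treated Ls174 level overlapped the range of untreated HepG2 cells.

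**Figure D2:**
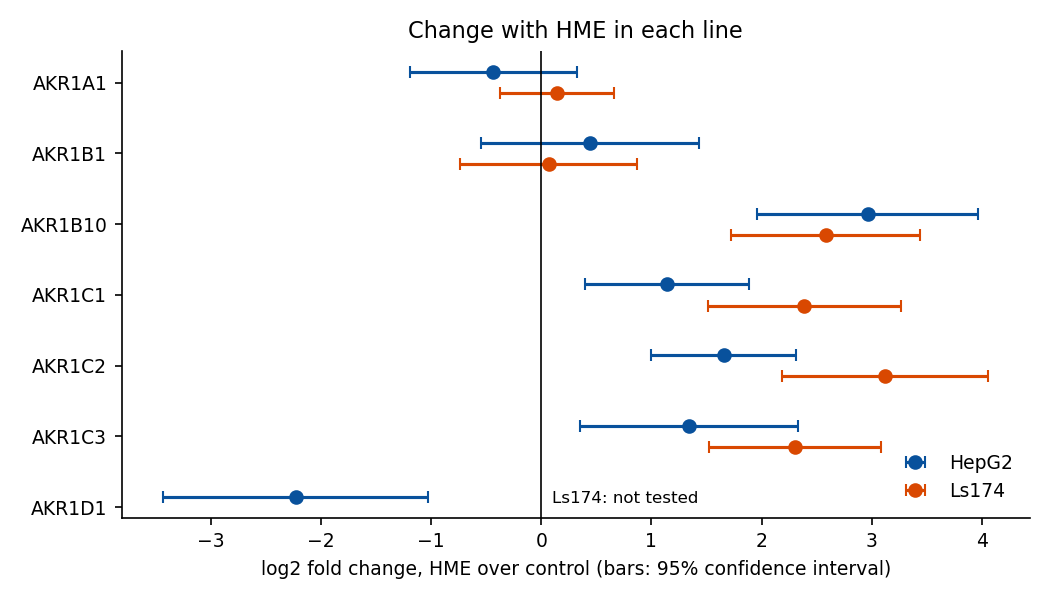
Log2 fold change of HME over control for the 7 members tested in HepG2 cells and the 6 tested in Ls174 cells (points), with 95% confidence intervals (bars), each line fitted by itself on 6 libraries. In HepG2 cells the intervals of AKR1B10, AKR1C1, AKR1C2 and AKR1C3 lie above 0 and that of AKR1D1 lies below 0, while the intervals of AKR1A1 and AKR1B1 include 0 in both lines.

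The make-up of the AKR1C reads was compared between the groups as shares. AKR1C3 took 17.0%, 4.79% and 17.4% of the summed AKR1C1, AKR1C2 and AKR1C3 counts in HepG2 controls and 14.5%, 12.2% and 13.4% with HME. In Ls174 cells it took 44.2%, 68.3% and 47.4% without HME and 46.2%, 44.1% and 48.9% with HME. Each Ls174 library lay above each HepG2 library, and the means differed by 40.2 points without HME and 33.1 points with HME (exact permutation test, two-sided, p = 0.1 in each, the smallest p that 3 against 3 libraries allow).

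The AKR1C2 share of AKR1C1 and AKR1C2 reads was 21.4%, 14.5% and 19.6% in HepG2 controls and 22.05%, 25.3% and 24.7% with HME. The groups did not overlap, though control 1 and HME 1 lay close (difference of means 5.51 points, exact permutation test, two-sided, p = 0.1, the smallest possible). In Ls174 cells the share was 23.5%, 41.8% and 34.0% without HME, from 115 to 529 reads, and 42.9%, 47.8% and 45.7% with HME. These shares carry the uncertainty of assignment given above.

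**Figure D3:**
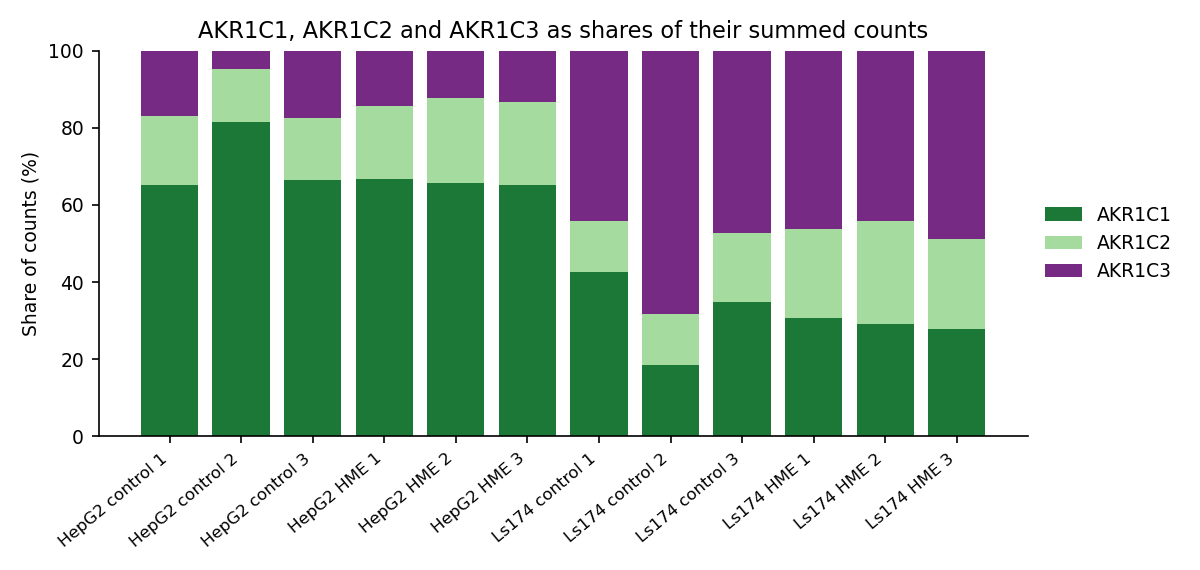
Share of AKR1C1, AKR1C2 and AKR1C3 in their summed counts (stacked bars, percent) in each of the 12 libraries. AKR1C3 makes up between 4.79% and 17.4% in HepG2 libraries and between 44.1% and 68.3% in Ls174 libraries, with HepG2 control 2 and Ls174 control 2 the farthest from their groups.

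AKR1D1, the 5β-reductase, was the only member tested that was lower with HME in HepG2 cells with no overlap of the groups. Controls held 13.7, 41.1 and 16.6 CPM (51, 66 and 41 counts) and treated cells 4.75, 6.36 and 3.60 CPM (12, 18 and 6 counts). The log2 fold change was -2.23 (SE 0.54, 95% interval -3.43 to -1.02), which did not pass the adjusted threshold. AKR1D1 passed the filter on low counts only through the controls, as HME 3, with 6 counts, was under the limit. The filter thus favoured a lower level with HME, and no p value is given. The summed hepatocyte markers were lower with HME in the same libraries, at 12873 to 14057 CPM against 18200 to 21447 CPM, and their part in this difference was not tested. Control 2 had the highest level, and without it the log2 fold change was -1.51. No Ls174 library had a count of AKR1D1, and 3 counts in the shallowest Ls174 control would be 1.48 CPM. The level in untreated HepG2 cells was at least 16.1-fold higher than that limit. AKR1D1 passed the filter on low counts there only through its HepG2 counts, so no p value is given. With HME the level in HepG2 cells was at least 4.49-fold higher than the limit of treated Ls174 cells, a comparison in which AKR1D1 did not pass the filter.

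AKR1A1, the aldehyde reductase that also takes part in ascorbate synthesis in many mammals, overlapped between all groups. HepG2 cells held 79.1, 121 and 136 CPM without HME and 103, 76.7 and 67.3 CPM with HME, and Ls174 cells held 89.99, 60.8 and 65.8 CPM and 68.9, 89.3 and 82.5 CPM. Each of the 4 groups overlapped its neighbour in the order of means, which ran from untreated HepG2 to untreated Ls174 cells. The log2 fold change with HME was -0.44 in HepG2 cells (95% interval -1.19 to 0.32, adjusted p = 0.47) and 0.15 in Ls174 cells (95% interval -0.37 to 0.66), and changes within these bounds could not be resolved. No difference between the lines passed the test, with log2 fold changes of -0.67 without HME (adjusted p = 0.21) and -0.06 with HME (adjusted p = 0.83).

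AKR1B1, the aldose reductase that turns glucose into sorbitol, overlapped between treated and control libraries in both lines. HepG2 controls held 151, 446 and 192 CPM, with control 2 the highest of all 12 libraries, and treated cells held 383, 335 and 368 CPM. Ls174 controls held 164, 65.8 and 71.9 CPM, with control 1 the highest, and treated cells 117, 100.3 and 99.9 CPM. With HME the log2 fold change was 0.44 in HepG2 cells (95% interval -0.55 to 1.43, adjusted p = 0.59) and 0.07 in Ls174 cells (95% interval -0.74 to 0.87). Without HepG2 control 2 the estimate was 1.15 with an adjusted p of 0.021, and without Ls174 control 1 it was 0.62. Treated Ls174 cells had less AKR1B1 than treated HepG2 cells (log2 fold change -1.79, SE 0.18, adjusted p = 1.2e-05), and untreated cells gave -1.45 (SE 0.55, adjusted p = 0.092). The untreated value was -0.80 without HepG2 control 2 and -1.98 without Ls174 control 1, where it passed (adjusted p = 0.035).

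AKR1B15 and AKR1C4 were close to or at 0. AKR1B15, a near copy of AKR1B10, had 8 counts over all 12 libraries, of which HepG2 HME 3 held 4 and HME 1 held 2. AKR1C4 had 1, 0 and 4 counts in HepG2 controls and 0 in each of the other 9 libraries. Neither gene passed the filter, and in a fit with no filter beyond 1 count neither was called with HME in HepG2 cells (adjusted p = 0.51 for AKR1B15 and 0.38 for AKR1C4), so the liver enzyme AKR1C4 was near the limit of detection in this liver cancer line at this depth.

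Counted over the family, 7 of 9 members passed the filter on low counts in HepG2 cells. With HME, 2 of these (AKR1B10 and AKR1C2) were higher and 0 were lower at an adjusted p under 0.05 in edgeR, a call that 3.31% of the 11343 genes tested received. DESeq2 called 1033 of the 11343 genes, among them 5 members, AKR1B10, AKR1C1, AKR1C2 and AKR1C3 higher and AKR1D1 lower. A looser rule took the limits of the study (log2 fold change beyond 0.58 with a p under 0.05 before adjustment). It was set here on the edgeR p, where the study used a binomial test, so its calls are not those of the study. By this rule the same 5 passed, against 22.2% of genes, and the groups of these 5 did not overlap, against 30.8% of genes. Among them AKR1D1 passed the filter on low counts only through the controls, so its calls support nothing. The median log2 fold change of the 7 was 1.14, and that of all genes tested was -0.04.

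In Ls174 cells 6 of 9 members passed the filter. Of these 4 (AKR1B10, AKR1C1, AKR1C2 and AKR1C3) were higher, past the threshold of the fit and without overlap, where 1.18% of 11319 genes passed the adjusted threshold, 12% passed the unadjusted rule and 23.8% did not overlap. This contrast selected the family, so the counts describe it and support nothing. The number past the threshold was 0 without control 2, HME 1, HME 2 or HME 3 and 2 without control 3, while the log2 fold changes of the 4 stayed between 1.99 and 3.78. Few genes of any kind passed in those fits: 0 without HME 1, HME 2 or HME 3, 2 without control 2 and 10 without control 3.

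**Figure D4:**
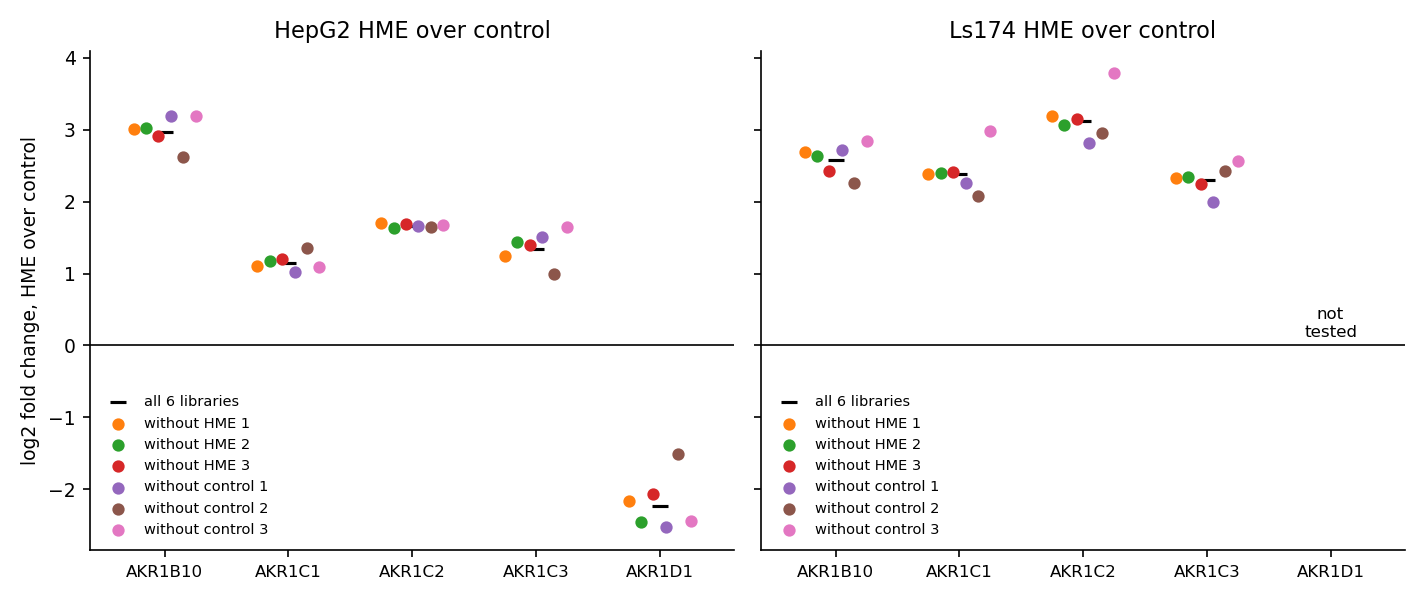
Log2 fold change of HME over control for 5 members in HepG2 (left) and Ls174 cells (right) with all 6 libraries (black dash) and with each library left out in turn (coloured points). The increases of AKR1B10, AKR1C1, AKR1C2 and AKR1C3 keep their sign in every fit, and AKR1D1 in HepG2 cells lies between -2.53 and -1.51.

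Between untreated lines, 5 of 7 members tested were lower in Ls174 cells (AKR1B10, AKR1C1, AKR1C2, AKR1C3 and AKR1D1), and 23.5% of 11907 genes were called in that comparison. AKR1D1, with 0 counts in Ls174 cells, passed the filter only through the HepG2 controls. Its direction was therefore fixed in advance, and its call supports nothing. AKR1B10 had counts in each Ls174 control, but too few to pass the filter by themselves, so its untreated call is a description only. Where AKR1C3 lost its call the count was 4, except without Ls174 control 1, where AKR1B1 was called in its place. With HME, 5 of 6 were lower (AKR1B1, AKR1B10, AKR1C1, AKR1C2 and AKR1C3), where 54.6% of 11914 genes were called. No member was called higher in Ls174 cells in either comparison. The untreated libraries serve both here and as controls of the HME comparisons, so these comparisons are not independent of each other. The Ls174 libraries are also those of the contrast that selected the family, so the p values between the lines are not free of that selection.

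The response to HME was compared between the lines by the interaction term of a fit of all 12 libraries, which holds the contrast that selected the family. The log2 fold change in Ls174 cells minus that in HepG2 cells was 1.49 for AKR1C2 (SE 0.50), 1.25 for AKR1C1 (SE 0.51), 1.00 for AKR1C3 (SE 0.60), 0.59 for AKR1A1 (SE 0.40), -0.34 for AKR1B10 (SE 0.61) and -0.39 for AKR1B1 (SE 0.58). Of these 6, 0 were called by edgeR at the adjusted threshold, which 0.644% of 13040 genes passed, and 0 by DESeq2, which called 397 genes. AKR1C1 and AKR1C2 had an unadjusted p under 0.05 in edgeR, as had 1718 of the 13040 genes. Because the fit holds the selecting contrast, no support is drawn from these 2. A difference of the AKR1C responses between the lines was thus not resolved, with a 95% interval for AKR1C2 of 0.42 to 2.56 before adjustment.

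Of 30 genes of the NRF2 pathway and its known targets, none of them an AKR1 member, 29 were tested in each line. In HepG2 cells 11 rose and 0 fell with HME at the adjusted threshold (3.31% of all genes were called), with a median log2 fold change of 1.13. The largest were MAFF, a small Maf partner of NRF2, at 9.65-fold (6.95 ± 2.15 to 67.7 ± 13.2 CPM, adjusted p = 0.0022), TXNRD1, thioredoxin reductase, at 9.42-fold (40.3 ± 29.6 to 374 ± 12.2 CPM, adjusted p = 0.020) and HMOX1, haem oxygenase, at 8.82-fold (82.1 ± 21.5 to 716 ± 224 CPM, adjusted p = 0.0029; SD, n = 3). In Ls174 cells 5 passed the threshold upward and 0 downward (1.18% of all genes were called), with a median of 0.75, led by the autophagy adaptor SQSTM1 at 3.22-fold, PIR at 3.14-fold and the sulfiredoxin gene SRXN1 at 2.51-fold. By the looser rule 21 were higher and 1 lower in HepG2 cells, where 22.2% of all genes passed. In Ls174 cells 15 were higher and 0 lower by that rule, where 12% of all genes passed.

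Other enzymes with like substrates mostly did not pass. Of 20 further carbonyl and aldehyde enzymes, 16 were tested in HepG2 cells, where PTGR1, a reductase of prostaglandins and lipid aldehydes, rose 4.18-fold (18.6 ± 5.51 to 77.6 ± 21.7 CPM, adjusted p = 0.014) and 0 fell, with 1 higher and 3 lower by the looser rule and a median log2 fold change of -0.40. In Ls174 cells 14 were tested, 4 were higher and 1 lower by that rule, and 1 passed the adjusted threshold, the aldehyde dehydrogenase ALDH3A1 at 3.997-fold (13.5 ± 3.59 to 54.9 ± 4.69 CPM). Among 22 steroid enzymes, 12 and 9 were tested and 0 passed in either line in edgeR, with 1 higher and 1 lower in HepG2 cells and 0 higher and 1 lower in Ls174 cells by the unadjusted rule. Bile acid synthesis, the pathway of AKR1D1, had 13 genes, of which 9 were tested in HepG2 cells with 0 called and 2 lower by the unadjusted rule, and 7 in Ls174 cells with BAAT, which conjugates bile acids, lower (36.6 ± 1.54 to 14.7 ± 2.10 CPM). The 7 other aldo-keto reductases had 2 genes tested in each line and 0 called, with 1 lower in HepG2 cells and 0 in Ls174 cells by the unadjusted rule.

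The genes whose pattern was most like that of AKR1B10 were found by Pearson's r of log2 CPM over the 12 libraries after the mean of each line was removed, among 7345 genes with at least 10 CPM in both lines. The closest were SQSTM1 (r = 0.95), the pentose phosphate enzyme TALDO1 (0.95), the lipid droplet gene PLIN2 (0.95), RBCK1 (0.94) and PTGR1 (0.94). For the sum of AKR1C1, AKR1C2 and AKR1C3 they were the growth factor AREG (0.95), the chemokine CCL20 (0.95), AREGB (0.94), SESN2 (0.93) and ISCA1 (0.93), where AREG and AREGB are near-identical copies whose reads may be shared. Within the family, r was 0.97 between AKR1C1 and AKR1C2, 0.92 between AKR1C2 and AKR1C3, 0.82 between AKR1C1 and AKR1C3, and between 0.81 and 0.87 for AKR1B10 with each of them. The points share their libraries and the contrast of treated with control cells, so these values describe likeness only.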

How the data were processed

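HepG2 and Ls174 cells, each with 3 control and 3 HME-treated replicates, gave 12 3′ mRNA libraries, which the authors sequenced on an Ion Torrent platform, aligned to hg19 (GRCh37) and counted per 3′ region with metaseqR2. The submitters' processing notes name HISAT2, Bowtie2 and Trimmomatic. The deposited values are whole-number counts without normalization, over 144910 regions per table. How reads with several alignments and strand were treated is not given in the sources used here, and the labels' dose differs slightly from the paper's.

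Region counts were summed per gene. Tests used edgeR 4.0.16 in R 4.3.3 (TMM, filterByExpr by group, quasi-likelihood fit), with Benjamini-Hochberg adjustment over all genes tested and two-sided p values. Each pair of groups was fitted by itself, and the interaction on all 12 libraries. CPM used 1 TMM scaling of all 12 libraries. The procedure was tested on simulated data. The edgeR p values set a difference of groups against the spread between replicates (3 per group), moderated over all genes. Alternatives were DESeq2 1.42.0, other scalings, no filter, a replicate block, pooled AKR1C genes, the largest region alone, 1 fit of all libraries and each library left out. A fold against a group at 0 used 3 counts in its shallowest library. Sequences came from GRCh37 with GENCODE annotation and from RefSeq, compared with Biopython 1.88, and tables and figures used Python 3.11.15 and matplotlib 3.10.9.

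The members and gene lists were chosen with earlier results of these data known. All members are named, and from each list and line at most the 3 largest changes at an adjusted p under 0.05. Authors' proteome and quantitative PCR data were not analysed here.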

Additional observations from a re-analysis of the deposited data

How the results depend on the processing

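In HepG2 cells, the 2 members called with HME became 5 with DESeq2, 4 with no filter beyond 1 count, 5 at an unadjusted p under 0.05 with a log2 fold change beyond 0.58, and 1 when AKR1C1, AKR1C2 and AKR1C3 or AKR1C1 and AKR1C2 were pooled, and lay between 1 and 6 when a library was left out (6 without control 2). The calls over all genes moved as well, from 375 in the main fit to 1033 with DESeq2 and 1407 of 24458 with no filter. They were 921 without control 2 and between 95 and 248 with any other library left out. In Ls174 cells, the 4 members lay between 0 and 5 when a library was left out (5 without control 1), while the calls over all genes lay between 0 and 979 (979 without control 1). The numbers of the replicates did not pair them (correlations of same-numbered libraries between -0.15 and 0.07), and with the replicate block 3 members were called in HepG2 and 0 in Ls174 cells, where 0 of all genes were called. Of the interactions, 0 were called, 2 at the unadjusted rule (which 1718 of all genes passed) and between 0 and 1 when a library was left out. Both comparisons between the lines stayed within 1.5 times their count, but the untreated one lost AKR1C3 with the replicate block (adjusted p = 0.086), leaving 4 members.

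Scaling by library size alone moved the median of all genes from -0.04 to -0.20 in HepG2 and, between treated lines, from -0.01 to 0.28, where AKR1A1 changed sign to 0.23. Signs also changed for values that were not called when a library was left out, for AKR1B1 in Ls174 cells (between -0.16 and 0.62), AKR1A1 between treated lines (between -0.19 and 0.12), and the interactions of AKR1B1 (between -0.98 and 0.15) and AKR1B10 (between -0.66 and 0.053). The causes were not tested. AKR1B15 and AKR1C4, with few counts, did not pass the filter and were not called where they could be fitted without it.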

Other observations

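Other loci of the family held few counts. AKR1E2 had 25, 1 and 1 counts in Ls174 controls 1, 2 and 3, 6, 1 and 1 with HME and 0 in each HepG2 library, so that its level in Ls174 cells rested on control 1, the library that stood apart. The pseudogene AKR1B10P1 had 0 counts in all 6 control libraries, 1, 5 and 4 in treated HepG2 cells and 1 in each treated Ls174 library, 13 in all, beside the rise of AKR1B10 itself, and whether these reads came from AKR1B10 was not tested. AKR1B1P1 had 12 counts and AKR1B1P7 had 11 over all libraries, and AKR1CL1 had 0.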
